A study of Mus musculus with 10 samples.

Results

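Complement is the cascade of blood and tissue proteins that marks microbes, dying cells and immune complexes for uptake, and 9 of its genes were followed here in mouse peritoneum: C1qa, C1qb, C1qc, C1ra, C1s1, C2, C3, C4b and Serping1. The list was set by gene name, with earlier results of these data already known. All 9 were found among the 21877 gene symbols of the deposited read-count table. All 9 also passed the filter on low counts that left 15385 genes for testing. The study put Mr1-/- and Mr1+/+ male C57BL/6 mice through 6 weeks of intraperitoneal injections, with the same volume of either peritoneal dialysis (PD) fluid at 4.25% or phosphate-buffered saline (PBS). Mr1 encodes an antigen-presenting molecule that mucosal-associated invariant T cells recognise, and PD fluid is the sugar-rich solution used to draw waste across the peritoneum in kidney failure. The groups were Mr1-/- given PD fluid (2 libraries), Mr1-/- given PBS (2 libraries), Mr1+/+ given PD fluid (3 libraries) and Mr1+/+ given PBS (3 libraries). The labels give no age, do not tie a library to an animal, and do not say whether animals were pooled or how the Mr1-/- allele was made.

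The classical pathway begins when C1q, a bundle of chains encoded by C1qa, C1qb and C1qc, binds antibody or other ligands on a surface. C1q carries the proteases C1r and C1s, which cut C4 and C2 to form the convertase that cleaves C3, the component on which all complement pathways converge. Serping1 encodes C1 inhibitor, the serpin that pulls C1r and C1s off C1q and so switches the pathway off. In tissues, C1q is made mainly by macrophages, while C1r, C1s, C3, C4 and C1 inhibitor are also made by fibroblasts and other stromal cells, and the liver supplies most of the plasma protein. In the peritoneum, complement acts at a surface that dialysis fluid bathes directly.

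Total counts were 14145635 to 16335799 per library. The libraries labelled Mr1-/- PD fluid replicates 1 and 2 were nearly identical (chi-square per gene 1.74), and so were Mr1+/+ PBS replicates 1 and 2 (2.23), while any other 2 libraries of a group gave at least 18.6. Each near-identical pair was summed into 1 sample, so the results below rest on 8 samples: 1 of Mr1-/- PD fluid, 2 of Mr1-/- PBS, 3 of Mr1+/+ PD fluid and 2 of Mr1+/+ PBS. The Mr1 gene had 29 to 39 counts in the libraries labelled Mr1-/- and 324 to 524 in those labelled Mr1+/+. RNA of other organs was unequal between samples. Mr1+/+ PBS replicate 3 stood apart, with pancreatic acinar markers summing to 26320 CPM (counts per 1000000, with library sizes scaled for composition) and intestinal markers to 2046 CPM. Acinar markers summed to 5373 CPM in the Mr1-/- PD fluid sample, against 660 and 277 CPM in the Mr1-/- PBS samples. In Mr1+/+ PD fluid samples they summed to 146, 3286 and 3868 CPM. The liver transcript Alb was at 64.1 to 107 CPM in Mr1-/- samples, against 0.215 to 2.17 CPM in Mr1+/+ samples. The 11 liver markers other than Cyp2e1, Alb among them, summed highest in Mr1+/+ PBS replicate 3, at 277 CPM. Their sum was 97.5 to 162 CPM in Mr1-/- samples and 1.78 to 6.63 CPM in the other Mr1+/+ samples. Mesothelial markers, the defining cells of the labelled tissue, were present in every sample and summed to 82.7 to 490 CPM.

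The 9 genes lie in 5 places of the mouse genome (build mm10, coordinates from GENCODE M21). The C1q genes sit side by side on the minus strand of chromosome 4 within 18.7 kb: C1qb (ENSMUSG00000036905.8) at 136880129 to 136886187, C1qc (ENSMUSG00000036896.5) at 136889804 to 136893065 and C1qa (ENSMUSG00000036887.5) at 136895917 to 136898803. C1ra (ENSMUSG00000055172.10, plus strand, 124512405 to 124523443) and C1s1 (ENSMUSG00000038521.17, minus strand, 124530345 to 124542359) belong to a 143 kb stretch of chromosome 6 that also holds their close copies C1rb and C1s2 and the related C1rl. C4b (ENSMUSG00000073418.4, 34728380 to 34743882) and C2 (ENSMUSG00000024371.14, 34862604 to 34898265) lie on the minus strand of chromosome 17 in a 169.9 kb stretch shared with C4a and Cfb. C3 (ENSMUSG00000024164.15) is further along the same chromosome at 57203970 to 57228136, and Serping1 (ENSMUSG00000023224.12) is on chromosome 2 at 84765387 to 84775444, both on the minus strand. C4a, a near-identical copy of C4b, is absent from the gene symbols of the read counts, so the C4b values may hold reads of both. C1rb and C1s2 have counts of their own, but the values of C1ra and C1s1 depend on how reads shared with these copies were counted. Of the annotated exon bases, 42.8% of C2 are shared with Gm20547 on the same strand and 18.4% of C1s1 with the antisense gene Gm16567.

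Promoters are shown for 5 of the members, those held in the RefSeq table (GRCm38.p6, the assembly behind mm10), because they stand for the C1q genes, the C1 proteases and C3, which the results below set side by side. Each runs from 250 bases before to 50 bases after the start annotated for the promoter, 5′ to 3′ on the strand of the gene. That start is not always the GENCODE gene start. In C1ra and C1qc it lies inside the gene bounds given above, and in C1qb just before them. Offsets below count from the start annotated for the promoter. They are C1qb (chr4:136886151-136886450, minus strand), C1qc (chr4:136892865-136893164, minus strand), C1ra (chr6:124512371-124512670, plus strand), the first of the entries of C1s1 (chr6:124542310-124542609, minus strand) and C3 (chr17:57228087-57228386, minus strand).
C1qb: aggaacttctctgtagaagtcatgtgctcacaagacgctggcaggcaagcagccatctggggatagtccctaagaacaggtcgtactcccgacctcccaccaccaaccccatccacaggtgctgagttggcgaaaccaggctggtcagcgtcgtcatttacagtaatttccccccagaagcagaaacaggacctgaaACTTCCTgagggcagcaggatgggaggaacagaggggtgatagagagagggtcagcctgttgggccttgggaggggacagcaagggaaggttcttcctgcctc
C1qc: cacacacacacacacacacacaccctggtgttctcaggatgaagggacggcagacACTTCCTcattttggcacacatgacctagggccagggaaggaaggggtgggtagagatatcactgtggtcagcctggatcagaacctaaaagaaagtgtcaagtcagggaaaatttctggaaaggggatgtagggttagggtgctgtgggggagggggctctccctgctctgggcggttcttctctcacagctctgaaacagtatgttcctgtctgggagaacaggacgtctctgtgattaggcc
C1ra: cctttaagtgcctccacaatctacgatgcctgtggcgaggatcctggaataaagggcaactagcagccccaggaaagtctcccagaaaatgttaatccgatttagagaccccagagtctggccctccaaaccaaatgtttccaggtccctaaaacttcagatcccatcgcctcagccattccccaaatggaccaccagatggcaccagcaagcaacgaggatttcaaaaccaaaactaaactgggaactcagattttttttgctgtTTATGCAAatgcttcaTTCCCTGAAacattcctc
C1s1: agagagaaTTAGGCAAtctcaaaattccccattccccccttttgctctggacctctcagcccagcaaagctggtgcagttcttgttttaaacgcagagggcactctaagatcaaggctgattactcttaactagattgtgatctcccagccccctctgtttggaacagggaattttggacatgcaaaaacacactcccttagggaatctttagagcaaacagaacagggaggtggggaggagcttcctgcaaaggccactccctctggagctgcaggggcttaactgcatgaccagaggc
C3: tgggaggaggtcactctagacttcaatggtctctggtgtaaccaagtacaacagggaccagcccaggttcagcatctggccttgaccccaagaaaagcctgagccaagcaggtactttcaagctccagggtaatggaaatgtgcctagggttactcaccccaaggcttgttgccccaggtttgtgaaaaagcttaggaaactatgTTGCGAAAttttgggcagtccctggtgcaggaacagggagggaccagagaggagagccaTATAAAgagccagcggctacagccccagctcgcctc
Capitals mark matches, on either strand, to a small set of motifs chosen with these sequences in view. C1qb and C1qc both hold AGGAAGT, a core bound by ETS factors such as the macrophage factor PU.1, read on the opposite strand as ACTTCCT and beginning 53 and 195 bases before the start. C1ra, C1s1 and C3 each hold TTGCNNAA, a C/EBP core, at 16 bases after, 242 before and 45 before the start, in C1ra and C1s1 as its reverse complement TTNNGCAA. C1ra also holds the STAT core TTCNNNGAA at 32 bases after its start, and C3 holds TATAAA at 14 bases after its annotated start. No match overlaps another. Of 32851 promoters of the same length, 9.35% hold the ETS core, 10.8% the C/EBP core, 8.3% the STAT core and 13.6% TATAAA. These are matches of letters and say nothing on binding.

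The 3 C1q chains were highest in Mr1+/+ mice given PD fluid and moved almost as one gene. C1qa had 179 CPM in the Mr1-/- PD fluid sample, against 96.4 and 164 CPM in the Mr1-/- PBS samples, and 242, 294 and 393 CPM in the Mr1+/+ PD fluid samples, against 169 and 177 CPM in the Mr1+/+ PBS samples. C1qb had 171 CPM in the Mr1-/- PD fluid sample, against 83.8 and 133 CPM with PBS, and 238, 282 and 345 CPM in the Mr1+/+ PD fluid samples, against 140.1 and 154 CPM with PBS. C1qc had 144 CPM in the Mr1-/- PD fluid sample, against 71.5 and 119 CPM with PBS, and 195, 224 and 276 CPM in the Mr1+/+ PD fluid samples, against 124 and 148 CPM with PBS. For each chain the PD fluid samples lay above the PBS samples of the same genotype with no overlap. Of all genes tested, 25% did so in Mr1+/+ and 28.7% in Mr1-/-. For each chain Mr1-/- PBS replicate 1 was the lowest of the 8 samples and Mr1+/+ PD fluid replicate 3 the highest. The make-up of the trio was steady: of the summed C1q level, C1qa took 35.9 to 39.3%, C1qb 32.0 to 35.3% and C1qc 27.2 to 31.0% across the 8 samples. Their summed level spanned 252 to 1013 CPM.

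C1ra and C1s1, the proteases of the C1 complex, varied less within groups than the C1q chains. C1ra had 186 CPM in the Mr1-/- PD fluid sample, against 109.6 and 122 CPM in the Mr1-/- PBS samples, and 225, 245 and 259 CPM in the Mr1+/+ PD fluid samples, against 123 and 128 CPM in the Mr1+/+ PBS samples. C1s1 had 209.6 CPM in the Mr1-/- PD fluid sample, against 131 and 154 CPM with PBS, and 273, 289 and 292 CPM in the Mr1+/+ PD fluid samples, against 143 and 144 CPM with PBS. Serping1, the inhibitor of both, had 453 CPM in the Mr1-/- PD fluid sample, against 262 and 269 CPM with PBS, and 590.0, 675 and 701 CPM in the Mr1+/+ PD fluid samples, against 328 and 355 CPM with PBS. In all 3 genes the PD fluid samples cleared the PBS samples of both genotypes, and the lone Mr1-/- PD fluid sample lay between the Mr1+/+ PD fluid samples and every PBS sample. How many of all genes share that pattern was not counted. Within a genotype, PD fluid samples lay above all PBS samples for 25% of genes in Mr1+/+ and 28.7% in Mr1-/-. The CPM of the inhibitor was 1.02 to 1.32 times the summed CPM of the 2 proteases across samples, a ratio on counts that is not scaled by gene length. In both Mr1-/- PBS samples that ratio was at its lowest, 1.02 and 1.04, against 1.23 and 1.31 in the Mr1+/+ PBS samples.

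C4b and C2 supply the convertase that cuts C3, and their levels were far apart. C4b had 653 CPM in the Mr1-/- PD fluid sample, against 428 and 514 CPM in the Mr1-/- PBS samples, and 730.1, 941 and 1127 CPM in the Mr1+/+ PD fluid samples, against 516 and 561 CPM in the Mr1+/+ PBS samples. Its PD fluid samples lay above its PBS samples in both genotypes, as did those of 25% of all genes in Mr1+/+ and 28.7% in Mr1-/-. C2 had 3.03 CPM in the Mr1-/- PD fluid sample, against 2.84 and 3.94 CPM with PBS, and 3.49, 4.6 and 5.21 CPM in the Mr1+/+ PD fluid samples, against 2.37 and 3.51 CPM with PBS. C2 was the one member whose PD fluid and PBS samples overlapped in both genotypes, and it rested on 38 to 84 counts per library.

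C3 was one of the most abundant transcripts of the tissue, ranking 4th to 12th of all genes by count in the 8 samples and taking 0.319 to 0.727% of all counts. It had 5496 CPM in the Mr1-/- PD fluid sample, against 3082 and 3112 CPM in the Mr1-/- PBS samples, and 5702, 6248 and 7799 CPM in the Mr1+/+ PD fluid samples, against 3609.7 and 4485 CPM in the Mr1+/+ PBS samples. All 4 PD fluid samples exceeded all 4 PBS samples, a pattern not counted over all genes. Within a genotype, 25% of all genes had PD fluid samples above all PBS samples in Mr1+/+ and 28.7% in Mr1-/-. Of the counts that fell on the 9 members, C3 alone held 66.2 to 74.0%. The liver makes most plasma C3. Its transcript Alb was at 107 CPM in the Mr1-/- PD fluid sample and at 64.1 and 105 CPM in the Mr1-/- PBS samples, against at most 2.17 CPM in any Mr1+/+ sample. Liver transcripts did not all follow Alb. The 11 liver markers other than Cyp2e1 summed to 277 CPM in Mr1+/+ PBS replicate 3 and 97.5 to 162 CPM in Mr1-/- samples. In the other Mr1+/+ samples they summed to 1.78 to 6.63 CPM. The part of liver RNA in the C3 level was not tested.

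**Figure D1:**
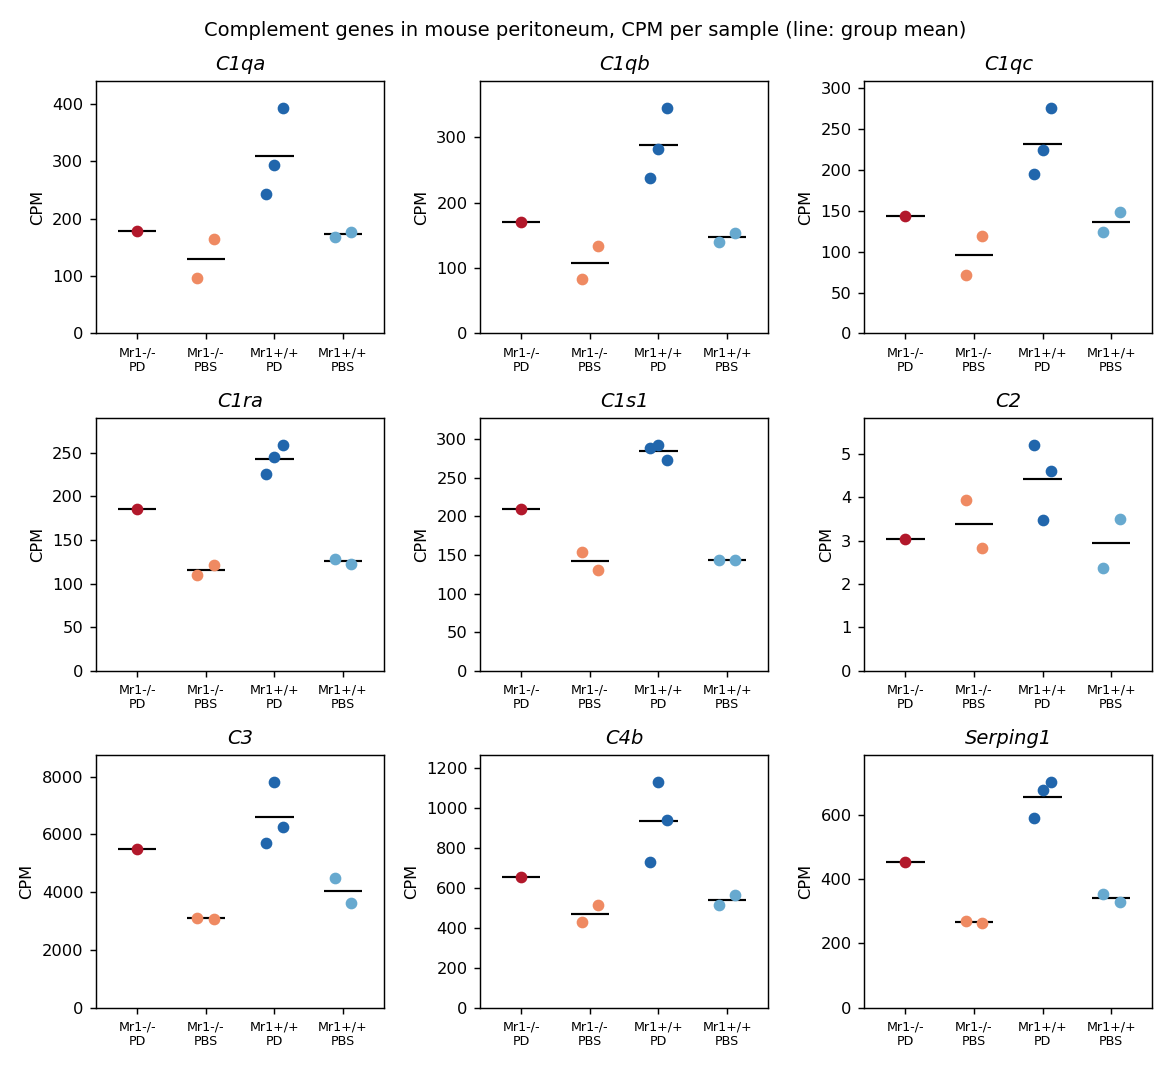
Level of each complement gene in CPM (vertical axis, from 0) for every sample, by group, with a line at the group mean. The 3 Mr1+/+ PD fluid points lie above the 2 Mr1+/+ PBS points in every panel but C2. The single Mr1-/- PD fluid point lies below the 3 Mr1+/+ PD fluid points in all 9 panels. Of all genes tested, 25% share the first pattern and 33.9% the second.

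Levels of different genes can be compared once divided by length, and on this scale, CPM per kilobase of annotated exon, C3 led in every group. In Mr1+/+ PD fluid samples C3 had 1280.0 ± 212 CPM per kb (SD, n = 3), followed by C1qa at 298 ± 73.6, Serping1 at 282 ± 24.9, C1qb at 265 ± 49.4, C4b at 164 ± 34.9, C1qc at 119.9 ± 21.2, C1s1 at 91.0 ± 3.25, C1ra at 81.5 ± 5.63 and C2 at 1.14 ± 0.225. In that group the ranges of C1qa and Serping1, of Serping1 and C1qb, and of C4b and C1qc overlapped, and the other neighbours in the order did not. The order of the group means was the same in the Mr1-/- PBS and Mr1+/+ PBS groups. The Mr1-/- PD fluid sample differed by 1 swap, with Serping1 at 195 CPM per kb ahead of C1qa at 172. Neighbours also overlapped in Mr1-/- PBS samples, where C1qa and Serping1, Serping1 and C1qb, C1qb and C4b, and C1qc and C1s1 did, and in Mr1+/+ PBS samples, where Serping1 and C1qb did. C1qa and C1qb lay above the proteases in every sample, and C1qc did except in Mr1-/- PBS replicate 1, where it had 37.1 CPM per kb, below C1s1 at 49.2. C1qc, the longest of the 3 C1q transcripts by annotation, was the lowest of the C1q genes on this scale in every group.

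**Figure D2:**
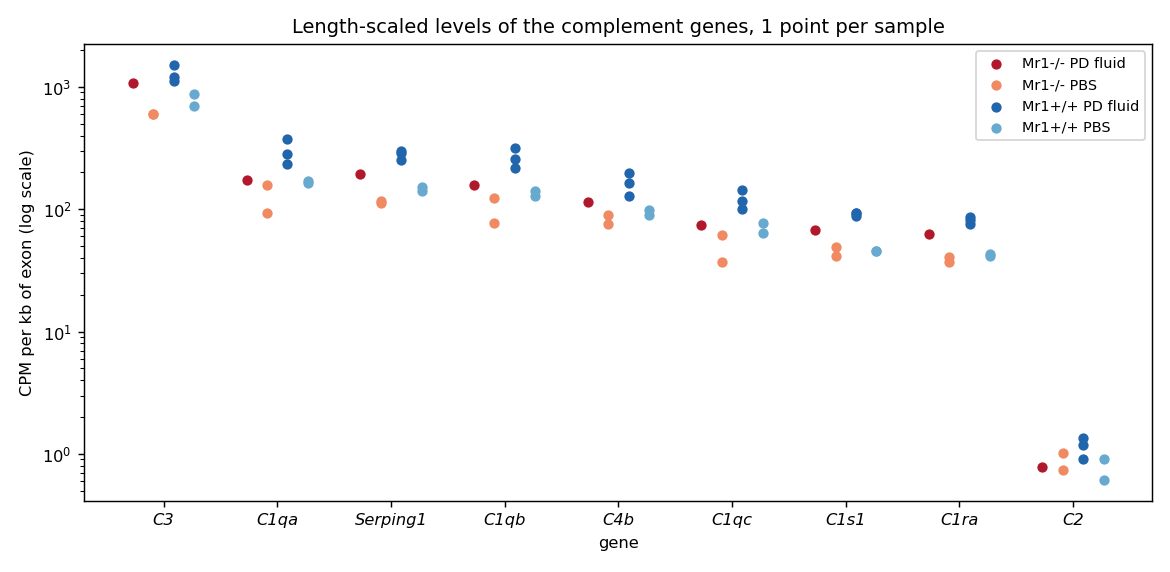
Length-scaled level (CPM per kilobase of exon, log scale) of the 9 genes ordered by their mean in Mr1+/+ PBS samples, 1 point per sample and 1 colour per group. C3 stands highest and C2 lowest in every group, and the other 7 genes lie between 36.8 and 378 CPM per kb.

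PD fluid was first compared with PBS in Mr1+/+ mice, the comparison that asks what the fluid does to a peritoneum with intact Mr1. C1qb, both C1 proteases, C3, C4b and Serping1 rose, each by less than 2-fold. In edgeR's quasi-likelihood test 6 of the 9 members passed an adjusted p (Benjamini-Hochberg over all genes) under 0.05 as higher and none as lower, where 8.49% of all 15385 genes tested passed as higher and 6.37% as lower. The median log2 fold change of the 9 was 0.84, against -0.06 over all genes tested. The clearest were the proteases and their inhibitor. C1s1 averaged 285 ± 10.2 CPM (SD, n = 3) with PD fluid and 143 ± 0.400 CPM (SD, n = 2) with PBS, a log2 fold change of 0.99 (SE 0.14, edgeR adjusted p = 0.0124). C1ra averaged 243 ± 16.8 CPM with PD fluid and 126 ± 3.72 CPM with PBS, a log2 fold change of 0.95 (SE 0.14, edgeR adjusted p = 0.0124). Serping1 averaged 655 ± 58.0 CPM with PD fluid and 341 ± 18.8 CPM with PBS, a log2 fold change of 0.94 (SE 0.15, edgeR adjusted p = 0.0129).

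Of the C1q chains, C1qb passed and the other 2 did not. C1qb averaged 288 ± 53.8 CPM (SD, n = 3) with PD fluid and 147 ± 9.91 CPM (SD, n = 2) with PBS, a log2 fold change of 0.97 (SE 0.24, edgeR adjusted p = 0.0323). C1qa had a log2 fold change of 0.84 (SE 0.27, edgeR adjusted p = 0.0735) and C1qc one of 0.76 (SE 0.25, edgeR adjusted p = 0.0706). The standard errors of the 3 chains are larger than their differences from one another, so the calls do not set C1qb apart. C4b averaged 933 ± 199 CPM with PD fluid and 538 ± 32.5 CPM with PBS, a log2 fold change of 0.79 (SE 0.21, edgeR adjusted p = 0.0413). C3 averaged 6583 ± 1088 CPM with PD fluid and 4047 ± 619 CPM with PBS, a log2 fold change of 0.70 (SE 0.20, edgeR adjusted p = 0.0495). That call was lost in 10 of 18 alternatives, among them library totals (edgeR adjusted p = 0.0559), no filter on low counts (0.0539) and only the groups compared (0.0560), and over the 18, DESeq2 included, the adjusted p ran from 0.00113 to 0.156. C2 did not pass, at 4.43 ± 0.872 CPM with PD fluid and 2.94 ± 0.808 CPM with PBS (log2 fold change 0.60, SE 0.37, edgeR adjusted p = 0.282). All members but C2 had every PD fluid sample above every PBS sample, as did 25% of all genes tested, and 25.6% had every PD fluid sample below. The calls depended on single libraries: 0 of 9 passed without Mr1+/+ PD fluid replicate 3, where the smallest adjusted p was 0.0576 for C1ra and C1s1, and C1ra, C1s1 and Serping1 were the 3 that passed without PD fluid replicate 2, without PBS replicate 3 and without PBS replicates 1 and 2. Without Mr1+/+ PD fluid replicate 3, 0 of all 15356 genes tested passed in either direction. Without PD fluid replicate 2, 252 of all 15374 genes passed as higher and 87 as lower. With the 10 libraries as separate samples 8 of 9 passed, where 2842 of all 14815 genes passed as higher and 2707 as lower. All 9 log2 fold changes were positive in each of the 18 alternatives run.

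**Figure D3:**
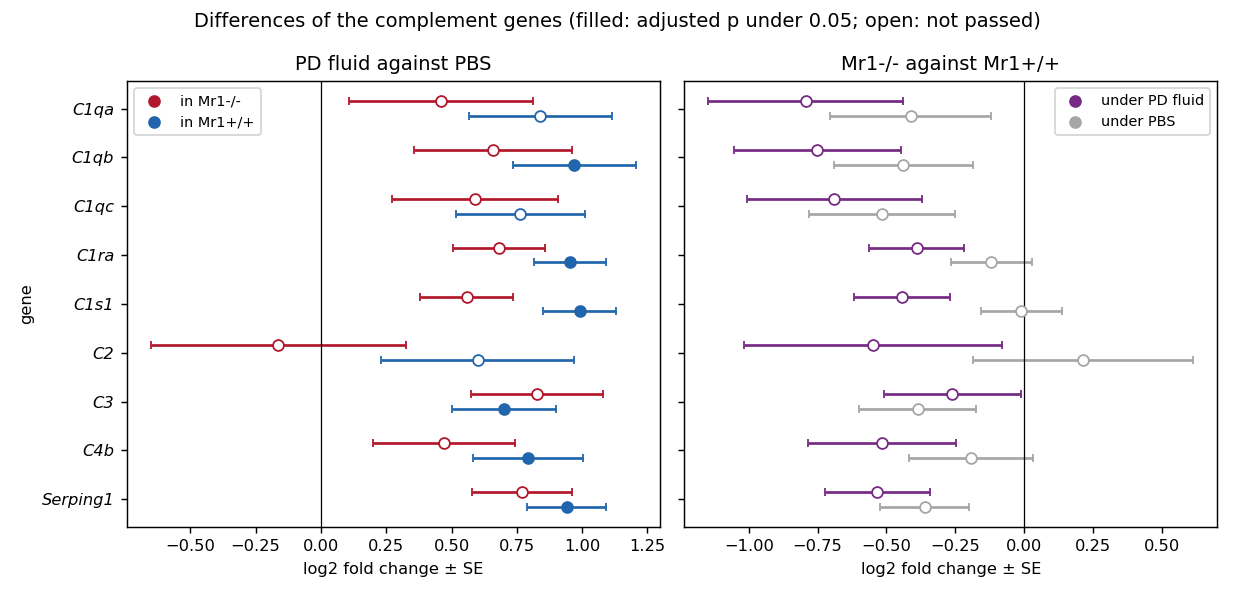
Log2 fold change ± SE of each complement gene for PD fluid against PBS (left, in Mr1-/- and in Mr1+/+) and for Mr1-/- against Mr1+/+ (right, under PD fluid and under PBS), with filled points for an adjusted p under 0.05. Filled points occur in 1 comparison, PD fluid in Mr1+/+, for 6 genes between 0.70 and 0.99, and all 9 points for genotype under PD fluid lie below 0 and are open.

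Marker lists of several other cell types moved in the same comparison. Of 12 macrophage markers 5 rose and none fell with PD fluid in Mr1+/+, among them the F4/80 gene Adgre1 (log2 fold change 1.49, SE 0.37) and the lipopolysaccharide co-receptor Cd14 (0.98, SE 0.25), while Cd68 (0.45, SE 0.25) and Csf1r (0.44, SE 0.19) did not pass. The 12 markers summed to 2935 to 3875 CPM in Mr1+/+ PD fluid samples, against 2415 to 2603 CPM in Mr1+/+ PBS samples. The summed C1q level was 0.220 to 0.262 times the summed macrophage markers in the Mr1+/+ PD fluid samples and 0.167 to 0.199 times in the Mr1+/+ PBS samples. Of 10 fibroblast markers 9 rose and none fell, including Dpt (1.95, SE 0.26), Lum (1.76, SE 0.29), Dcn (1.41, SE 0.25) and Pdgfra (0.71, SE 0.13). They summed to 4329 to 5586 CPM in Mr1+/+ PD fluid samples, against 1560 to 1870 CPM with PBS. The summed C1ra and C1s1 level was 0.0953 to 0.119 times the fibroblast sum in the Mr1+/+ PD fluid samples and 0.143 to 0.174 times in the Mr1+/+ PBS samples, so their sum grew by less than that of the markers. Of 10 adipocyte markers 8 rose and none fell, and they summed to 14060 to 19890 CPM with PD fluid and 4731 to 6158 CPM with PBS. Of 8 B cell markers, all 8 fell, to 1121 to 1251 CPM in sum with PD fluid, against 2008 to 3189 CPM with PBS. Of 8 T cell markers 3 fell, and the list summed to 474 to 707 CPM with PD fluid and 786 to 1165 CPM with PBS. Of 5 tested red blood cell markers 3 rose, and the list summed to 84.8 to 239.6 CPM with PD fluid and 18.1 to 35.6 CPM with PBS. Of 7 tested neutrophil markers 2 rose, and the list summed to 13.0 to 80.3 CPM with PD fluid and 2.39 to 6.83 CPM with PBS. No macrophage, fibroblast, adipocyte or B cell marker was at 0 in any sample. The part of these lists in the complement differences was not tested, and in whole tissue more cells of a type and more RNA per cell cannot be told apart.

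**Figure D4:**
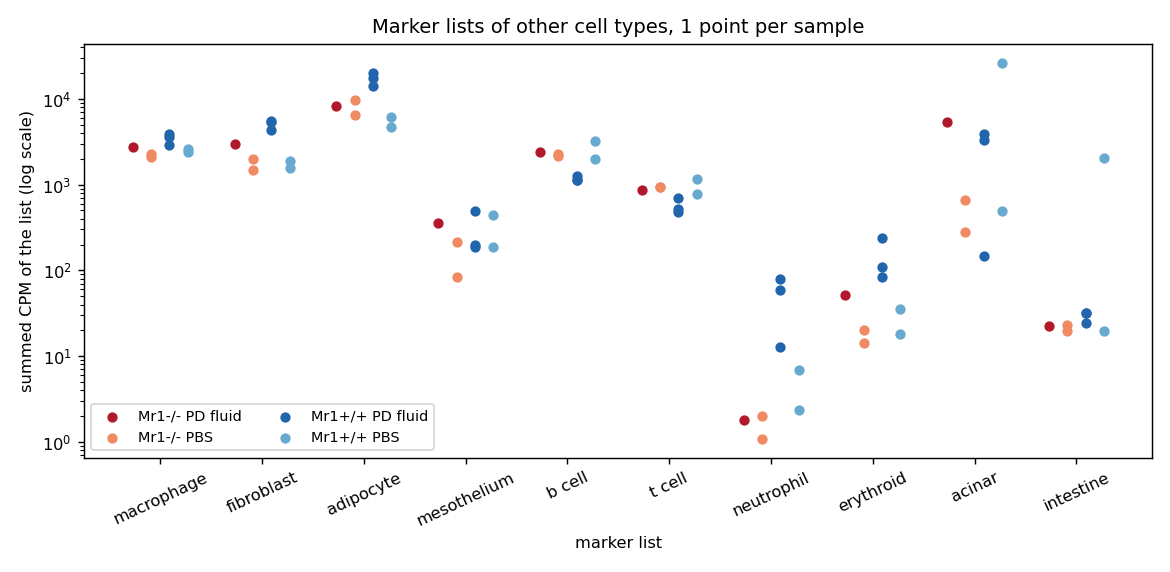
Summed CPM (log scale) of 10 marker lists of other cell types, 1 point per sample and 1 colour per group. Fibroblast and adipocyte sums are highest in the 3 Mr1+/+ PD fluid samples, and the acinar sum of 26320 CPM and the intestinal sum of 2046 CPM belong to 1 Mr1+/+ PBS sample.

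In Mr1-/- mice the same comparison had 1 PD fluid sample, and no gene of the 15385 passed in either direction (0% higher and 0% lower). Its error is therefore borrowed from the spread within the other groups. The member values leaned to the PD fluid side: C3 had a log2 fold change of 0.83 (SE 0.25), Serping1 of 0.77 (SE 0.19), C1ra of 0.68 (SE 0.18), C1qb of 0.66 (SE 0.30), C1qc of 0.59 (SE 0.32), C1s1 of 0.56 (SE 0.18), C4b of 0.47 (SE 0.27) and C1qa of 0.46 (SE 0.35), each with an edgeR adjusted p of 1. C2 was at -0.16 (SE 0.49), and turned to 0.01 when PD fluid replicate 1 was left out and to 0.09 when PBS replicate 1 was. The C1q values depended on which PBS library was kept: without Mr1-/- PBS replicate 1 they were 0.13 for C1qa, 0.36 for C1qb and 0.27 for C1qc, and without Mr1-/- PBS replicate 2 they were 0.89, 1.03 and 1.01. At an unadjusted p under 0.05, C1ra, C1s1, C3 and Serping1 were higher, where 185 of all genes (1.2%) were higher and 46 (0.299%) lower. DESeq2 called 3 genes in this comparison, none of them a member. The PD fluid sample lay above both PBS samples for 8 of the 9 members, as it did for 28.7% of all genes, and it lay below both for 27.9%. Fibroblast markers summed to 2997 CPM in the PD fluid sample and 1476 to 1998 CPM in the PBS samples, macrophage markers to 2745 CPM against 2112 to 2301 CPM, and their part in these values was not tested.

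With PBS alone, Mr1-/- mice were compared with Mr1+/+ mice to ask whether the genotype sets the resting level of these genes. None of the 9 members passed, where 1 gene of all those tested passed as higher (0.0065%) and 1 as lower (0.0065%), and none of the 9 had an unadjusted p under 0.05, a level at which 5.64% of genes were higher and 3% lower. DESeq2 called none of the 9 either. The values were on the lower side for 8 members. The C1q chains were at log2 fold changes of -0.41 (C1qa, SE 0.29), -0.44 (C1qb, SE 0.25) and -0.52 (C1qc, SE 0.27), C3 at -0.39 (SE 0.21) and Serping1 at -0.36 (SE 0.16). C4b (-0.19, SE 0.23), C1ra (-0.12, SE 0.15) and C1s1 (-0.01, SE 0.15) were closer to 0, and C2 was at 0.21 (SE 0.40). Both Mr1-/- PBS samples lay below both Mr1+/+ PBS samples for 7 of 9 members, against 18.1% of all genes, and above both for none, against 20.5%. The C1q difference leaned on Mr1-/- PBS replicate 1, and without it the C1qa value was -0.08.

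Under PD fluid, all 9 members were lower in the single Mr1-/- sample than in each of the 3 Mr1+/+ samples, a pattern that 33.9% of all genes shared, while 36% showed the opposite one. None passed the adjusted threshold, where 0.0065% of genes passed as higher and 0.0065% as lower. The largest values were those of the C1q chains, with log2 fold changes of -0.79 for C1qa (SE 0.35, edgeR adjusted p = 0.271), -0.75 for C1qb (SE 0.30, edgeR adjusted p = 0.231) and -0.69 for C1qc (SE 0.32, edgeR adjusted p = 0.281). Serping1 was at -0.53 (SE 0.19, edgeR adjusted p = 0.199), C4b at -0.51 (SE 0.27), C1s1 at -0.44 (SE 0.17), C1ra at -0.39 (SE 0.17) and C3 at -0.26 (SE 0.25). C2, with few counts, was at -0.55 (SE 0.47). At an unadjusted p under 0.05, C1qb, C1s1 and Serping1 were lower, where 8.85% of all genes were lower and 10.2% higher. With the 10 libraries as separate samples 6 members passed as lower (the C1q chains, C1ra, C1s1 and Serping1). In that setting 1646 of all 14815 genes passed as lower and 1754 as higher. It treats the near-identical Mr1-/- libraries as replicates of each other. DESeq2 passed Serping1 alone of the members, where 592 of all 15385 genes passed as lower and 439 as higher. Adipocyte markers summed to 8307 CPM in the Mr1-/- PD fluid sample, against 14060 to 19890 CPM in the Mr1+/+ PD fluid samples, fibroblast markers to 2997 CPM against 4329 to 5586 CPM, macrophage markers to 2745 CPM against 2935 to 3875 CPM, and B cell markers to 2408 CPM against 1121 to 1251 CPM. The part of these differences in cell markers was not tested.

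Whether the response to PD fluid itself differed between genotypes was tested by the interaction of genotype and fluid. No member passed, and none had an unadjusted p under 0.05, where 0% of genes passed in either direction and 6.08% were higher and 7.16% lower at that unadjusted level. DESeq2 called no member in the interaction. For C3 the difference between the responses (Mr1-/- minus Mr1+/+) was 0.13 (SE 0.32) on the log2 scale, the one positive value, and -0.04 without Mr1+/+ PBS replicates 1 and 2. It was -0.17 (SE 0.25) for Serping1, -0.17 (SE 0.40) for C1qc, -0.27 (SE 0.22) for C1ra, -0.31 (SE 0.39) for C1qb, -0.32 (SE 0.35) for C4b, -0.38 (SE 0.45) for C1qa, -0.43 (SE 0.23) for C1s1 and -0.76 (SE 0.61) for C2. Without Mr1-/- PBS replicate 2 the C1q values turned positive, at 0.05 for C1qa, 0.06 for C1qb and 0.24 for C1qc. With standard errors of 0.22 to 0.61 these data cannot separate an equal response from a weaker or a stronger one in Mr1-/- mice. Nor do they limit the difference to a modest amount: C1qa, at -0.38 (SE 0.45), had a response of 0.84 in Mr1+/+ mice.

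The rest of the complement system was read from lists of genes by role, to be set against the 8.49% of all genes that passed as higher and the 6.37% that passed as lower with PD fluid in Mr1+/+. Of the copies and relatives of C1r and C1s, 1 of 3 tested rose with PD fluid in Mr1+/+: C1rl, a C1r-like protease, had 12.3, 18.7 and 19.2 CPM with PD fluid, against 6.74 and 9.48 CPM with PBS (log2 fold change 1.05, SE 0.28). The near-identical copies C1rb and C1s2 had 15 to 50 and 20 to 40 counts per library, far below C1ra and C1s1. Of the 3 alternative pathway genes, Cfd rose and Cfb and the properdin gene Cfp did not pass. Cfd, the factor D protease secreted by fat cells as adipsin, had 3357, 4271 and 5859 CPM with PD fluid and 1211 and 1213 CPM with PBS in Mr1+/+ mice (log2 fold change 1.89, SE 0.27), in the samples where adipocyte markers rose. In Mr1-/- mice it had 1522 CPM with PD fluid and 1527 and 2066 CPM with PBS. The C3 level was 1.07 to 1.83 times that of Cfd in Mr1+/+ PD fluid samples and 2.98 to 3.70 times in Mr1+/+ PBS samples, again without scaling by length. Factor B, the substrate of factor D, had 2 to 16 counts per library.

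Among 6 tested genes of the lectin pathway, which reads sugars on microbial surfaces, 2 rose with PD fluid in Mr1+/+. The ficolin Fcna had 16.9, 18.3 and 25.1 CPM with PD fluid and 6.3 and 11.6 CPM with PBS (log2 fold change 1.18, SE 0.31), and the collectin Colec12, a scavenger receptor of the cell surface, had 62.3, 63.7 and 74.6 CPM with PD fluid and 35.9 and 41.9 CPM with PBS (0.78, SE 0.21). Of 7 tested genes of the terminal pathway, which builds the membrane attack complex, 1 rose. C7 had 107, 206 and 264 CPM with PD fluid and 38.8 and 48.1 CPM with PBS (log2 fold change 2.15, SE 0.39). Of 14 tested regulators, 1 rose and none fell, a share near that of all genes. Cd59a, whose product blocks the membrane attack complex on the body's own cells, had 42.1, 42.2 and 45.7 CPM with PD fluid and 12.3 and 18.6 CPM with PBS (log2 fold change 1.49, SE 0.24).

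Receptors for complement fragments were the list with the most calls apart from the members: 4 of 9 rose and 1 fell with PD fluid in Mr1+/+. C5ar1, the receptor for the attractant C5a, had 23.2, 40.1 and 40.9 CPM with PD fluid and 7.07 and 9.83 CPM with PBS (log2 fold change 2.04, SE 0.30). Vsig4, a C3b receptor of tissue macrophages, had 1.86, 5.38 and 7.51 CPM with PD fluid and 0.562 and 0.615 CPM with PBS (3.04, SE 0.77). Itgam, a subunit of complement receptor 3, had 10.2, 13.4 and 23.4 CPM against 4.80 and 5.90 CPM (1.55, SE 0.38), and Cd93, once described as a C1q receptor, 100.1, 169 and 206 CPM against 60.5 and 69.4 CPM (1.28, SE 0.34). All 4 had every PD fluid sample above every PBS sample, a pattern that 25% of all genes shared. The part of the macrophage and neutrophil markers that rose in these samples was not tested. Cr2, the complement receptor of B cells, fell to 66.2, 70.7 and 70.8 CPM with PD fluid, against 105 and 147 CPM with PBS (log2 fold change -0.87, SE 0.17), in the samples where all 8 B cell markers fell. None of these genes passed in the other comparisons. In Mr1-/- mice, C7 (log2 fold change 1.53, SE 0.47), C5ar1 (1.03, SE 0.36), Vsig4 (4.01, SE 0.96), Fcna (1.02, SE 0.40), C1rl (0.80, SE 0.36), Colec12 (0.55, SE 0.27), Itgam (0.53, SE 0.47), Cd93 (0.13, SE 0.43), Cfd (-0.24, SE 0.34), Cr2 (-0.32, SE 0.24) and Cd59a (-0.47, SE 0.31) each had an edgeR adjusted p of 1. For Cfd and Cd59a these values lie on the other side of 0 from those in Mr1+/+. Of 15 tested interferon-inducible genes none passed in edgeR in any comparison, 5 had an unadjusted p under 0.05 with PD fluid in Mr1+/+ (2 higher, 3 lower), and their median log2 fold change with PD fluid in Mr1+/+ was -0.21.

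**Figure D5:**
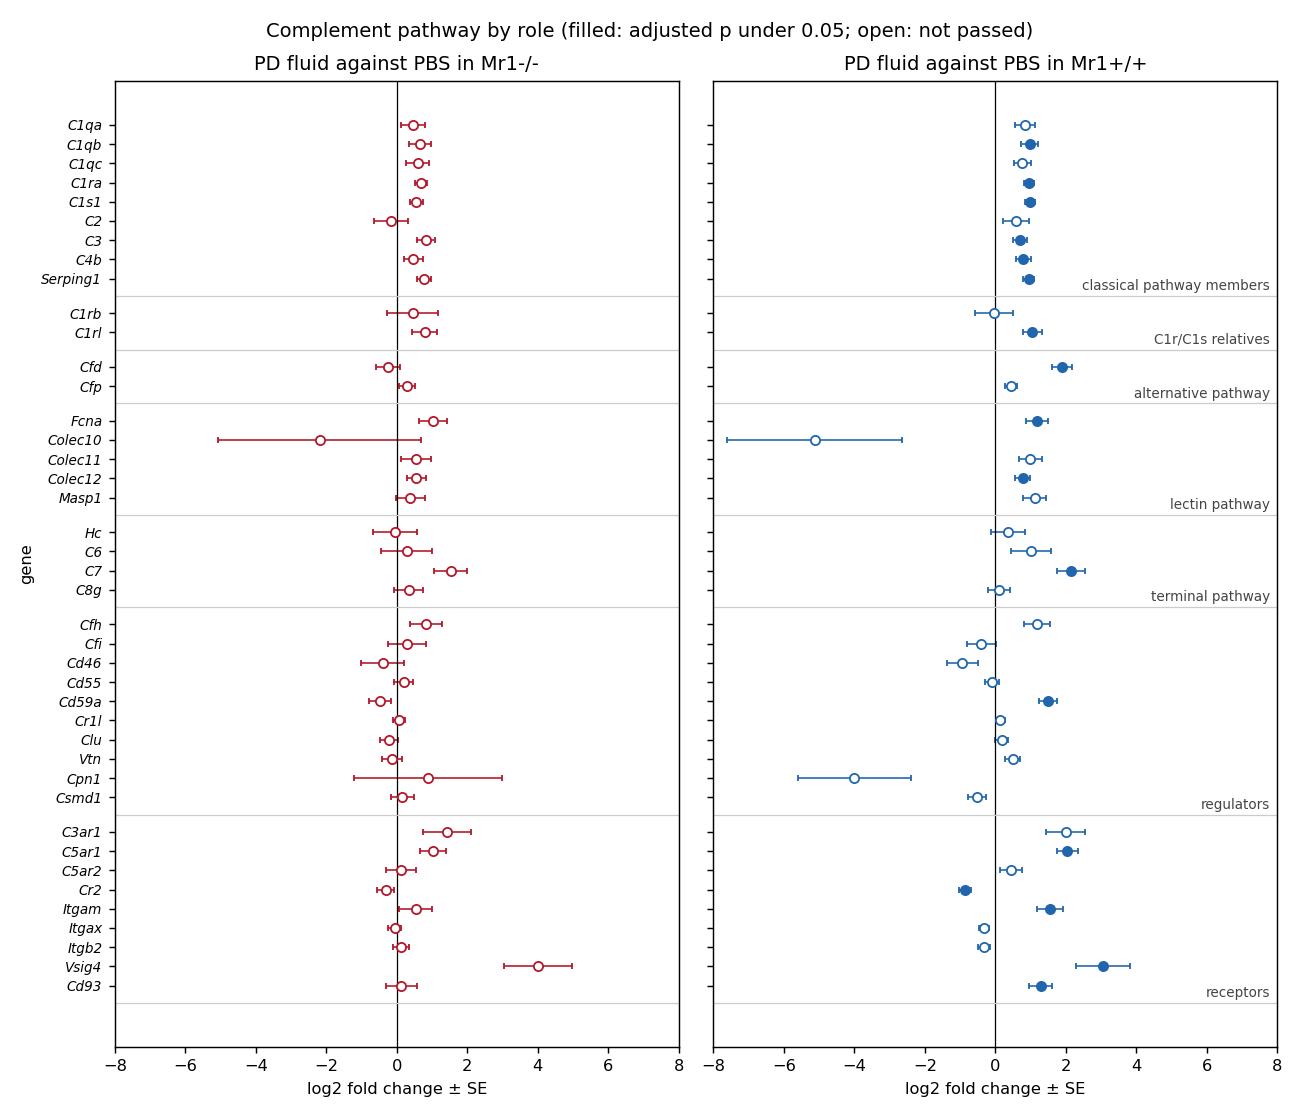
Log2 fold change ± SE for PD fluid against PBS in Mr1-/- (left) and Mr1+/+ (right) of the 41 complement genes with at least 50 counts in some library, ordered by role, with filled points for an adjusted p under 0.05. Filled points are all in Mr1+/+ and, apart from Cr2 at -0.87, all to the right of 0, up to 3.04 for Vsig4.

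Among themselves, the members formed a tight C1q trio and a looser set of the other genes. Likeness was measured as the root mean square (RMS) difference of centred log2 CPM over the 8 samples, where 0 is an identical pattern. The C1q chains differed by 0.08 to 0.10 from one another. C1ra differed by 0.12 from Serping1 and 0.13 from C1s1, C3 by 0.16 from Serping1, and C4b by 0.17 from C1ra. C1s1 and the C1q chains were further apart, at 0.34 to 0.37, and C2, the gene with the fewest counts, was 0.35 to 0.56 from every other member. The range from the lowest to the highest sample was widest in the C1q chains, 1.94 to 2.04 on the log2 scale, and 1.10 to 1.42 in the other members. The same 8 samples and the group differences in them underlie every one of these values.

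Of 11694 genes with a mean of at least 5 CPM, the one closest to the mean of the C1q chains was Colec11 (RMS difference 0.136), a soluble collectin of the lectin pathway, then Aoah (0.166), Lrrc25 (0.177) and Dusp8 (0.178). Colec11 itself did not pass with PD fluid in Mr1+/+ (edgeR adjusted p = 0.0781). For C1s1 the closest of 11696 genes were the Wnt receptor gene Fzd1 (0.078), Dennd2a (0.105), Cdc42ep1 (0.105) and the metalloproteinase inhibitor Timp2 (0.108). For C3 they were C1qtnf1 (0.0726), Timp2 (0.110), Rab11fip5 (0.120) and Tctn2 (0.138). For C4b they were Stard8 (0.0625), P2ry6 (0.0938), Man1c1 (0.103) and the collagen-modifying enzyme Plod1 (0.104). These lists describe 8 samples and share the same libraries as the anchors.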

How the data were processed

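The values start from whole-number read counts per gene symbol that the authors deposited, not normalized, for 10 poly-A libraries amplified by PCR without named molecular identifiers, per the labels' protocols. Reads were placed on mm10 according to the submitters' processing notes. Which aligner, counter and annotation were used is not given in the sources used here. The protocols name no step that marks the strand, so antisense reads cannot be told apart if none was used. The table had 21899 rows, and rows with the same symbol were summed to 21877 symbols, of which 97.0% matched GENCODE M21, the source of coordinates and exon lengths.

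Near-identical library pairs (chi-square per gene over genes with at least 10 summed counts) were summed to 1 sample. Genes were kept with filterByExpr, scaled by TMM and tested with edgeR 4.0.16 (R 4.3.3) by robust quasi-likelihood F tests on 4 group means from 8 samples (4 residual degrees of freedom), with Benjamini-Hochberg adjustment over 15385 genes and a threshold of 0.05. Standard errors come from the fold change and its F statistic. The fit was tested on simulated data. Alternatives were DESeq2 1.42.0, other size factors, no filter, the 10 libraries with and without a replicate block, and leaving out each library. Mr1+/+ PBS replicates 1 and 2 were also left out together. Nothing in the labels makes the replicates separate animals, so p-values cover the spread among these samples alone, possibly technical, and the labels give no batch.

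The members and gene lists were chosen with earlier results of these data known. All 9 members are named, every called gene of the other complement lists, up to 4 genes of a marker list in listed order, and the 4 genes most alike; Alb, C1rb, C1s2, Cfb, Cfp, C9, C4bp, C8a, C8b, Cpn1, Cpn2 and Mbl2 were added after their values were seen. Over 13 pairs of libraries that share a replicate number the correlation of deviations from the group means was -0.156 to 0.174. Over 24 pairs with different numbers it was -0.185 to 0.185. In groups of 2 libraries the deviations mirror each other, so these values cannot say whether the numbers pair samples.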

Additional observations from a re-analysis of the deposited data

How the results depend on the processing

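Of the results for single members under each alternative, 744 kept their direction and side of the threshold, 23 gained a call, 23 lost one and 11 changed sign, none of them a called value. For PD fluid in Mr1+/+, 6 members passed, with 1306 genes higher and 980 lower. The 10 libraries as separate samples gave 5549 genes, the same with the replicate block 5537 and DESeq2 3780, with 8 members in each; leaving out 1 library or merged pair gave 0 to 6 members and 0 to 2751 genes. C3 lost its call in 10 of 18 alternatives, C4b in 6 and C1qb in 4. For PD fluid in Mr1-/-, 0 genes passed (231 at an unadjusted p under 0.05), 2 with the 10 libraries, 3 with DESeq2 and 0 to 1 with a library left out. For genotype under PBS, 2 genes passed, 50 with the 10 libraries, 212 with DESeq2, 6 with no filter and 0 with only the groups compared. Leaving out a library or merged pair gave 1 to 665. For genotype under PD fluid, 2 genes and 0 members passed. The 10 libraries gave 3400 and 6, the replicate block 2428 and 4, and DESeq2 1031 and 1. No filter gave 7 genes, only the groups compared 561, and a library or merged pair left out 0 to 42. For the interaction, 0 genes passed, 1490 with the 10 libraries, 1915 with the replicate block and 472 with DESeq2. A library or merged pair left out gave 0 to 311. The counts of 665, 42 and 311 genes all came from leaving out Mr1+/+ PBS replicates 1 and 2 together. That fit left Mr1+/+ PBS replicate 3 as the only sample of its group. Members that changed sign were C1s1 for genotype under PBS, at 0.041 with library totals and -0.132 to 0.102 with a library left out, and, over fits with a library or merged pair left out, C2 with PD fluid in Mr1-/- (-0.379 to 0.094), C2 for genotype under PBS (-0.048 to 0.519) and, in the interaction, C1qa (-0.712 to 0.052), C1qb (-0.606 to 0.063), C1qc (-0.495 to 0.244) and C3 (-0.042 to 0.273). The causes were not tested. Depth limits C2, with 38 to 84 counts per library.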

Other observations

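Some complement genes known chiefly as liver products had more CPM in Mr1-/- than in Mr1+/+ samples, and others did not. They were chosen after their values were seen. C9, the pore-forming component, had 0.663 CPM in the Mr1-/- PD fluid sample and 0.338 and 0.816 CPM in the Mr1-/- PBS samples, against 0 counts in all 5 Mr1+/+ samples. C4bp, which encodes the C4b-binding protein that restrains the classical convertase, had 1.04 CPM in the Mr1-/- PD fluid sample and 0.338 and 0.884 CPM in the Mr1-/- PBS samples, against 0 to 0.140 CPM in the Mr1+/+ samples. C8a had 0.758 CPM in the Mr1-/- PD fluid sample and 0.474 and 1.02 CPM in the Mr1-/- PBS samples, against 0 to 0.277 CPM. C8b had 0.537 CPM in the Mr1-/- PD fluid sample and 0.203 and 0.680 CPM in the Mr1-/- PBS samples, against 0 to 0.140 CPM. All of these values rest on at most 33 counts in a sample, and the Mr1-/- PD fluid sample holds the counts of 2 libraries. Other liver products overlapped between genotypes. Cpn2 had 0.979 CPM in the Mr1-/- PD fluid sample and 0.271 and 0.748 CPM in the Mr1-/- PBS samples, against 0 to 0.281 CPM in the Mr1+/+ samples. Mbl2 had 0.347 to 0.476 CPM in the Mr1-/- samples, against 0 to 0.491 CPM in the Mr1+/+ samples. Cpn1 had 0.340 to 0.758 CPM in the Mr1-/- samples, against 0.0923 to 0.648 CPM in 4 Mr1+/+ samples, and had 171 counts, its highest level, in Mr1+/+ PBS replicate 3. C9, C4bp, C8a, C8b, Cpn1 and Cpn2 were tested in edgeR and none passed. Alb was at 64.1 to 107 CPM in the Mr1-/- samples and 0.215 to 2.17 CPM in the Mr1+/+ samples. Of 11 liver markers other than Cyp2e1 none was at 0 in any Mr1-/- sample, against 2 to 7 at 0 in the Mr1+/+ samples. Their sum was nonetheless highest in Mr1+/+ PBS replicate 3, at 277 CPM, against 97.5 to 162 CPM in the Mr1-/- samples. In the other Mr1+/+ samples it was 1.78 to 6.63 CPM. The part of liver RNA in these counts was not tested. C3, C4b, C1ra and Serping1, which the liver also makes, had lower group means in Mr1-/- than in Mr1+/+ samples under either fluid. C1s1 did so under PD fluid. Under PBS its means were 142 CPM in Mr1-/- and 143 CPM in Mr1+/+, with overlapping samples. The part of liver RNA in the levels of these members was not tested either.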
